A study of Mus musculus with 12 samples.

Results

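The forkhead (Fox) genes encode transcription factors that bind DNA through a winged-helix domain. They were taken as the rows of the deposited expression table whose name is Fox, 1 letter from a to s and a number. The rule found 42 genes of the 25965 rows. Of these, 27 were above 0 on the deposited log2 scale in 2 or more of the 12 libraries and were tested, and 15 did not pass that filter on low values. Transcript variants and genes with a letter after the number, such as Foxf1a, are outside the rule.

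Forkhead factors act at many steps of early development. Foxh1 carries Nodal signals to DNA with Smad proteins, Foxd3 acts in pluripotent cells and in neural crest, Foxa factors open chromatin in endoderm and notochord, and Foxc and Foxf factors act in paraxial and lateral mesoderm. Foxo factors are held in the cytoplasm by insulin and Akt signalling, Foxm1 activates mitotic genes, and Foxj1 activates genes of motile cilia.

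RNA was sequenced from C57BL/6 mouse embryonic stem (ES) cells labelled male, derived from single blastocysts, before and during differentiation towards neuromesodermal progenitors, which are precursors of spinal cord and paraxial mesoderm. Each of 2 ES lines (line 1 and line 3) was split. One part was transduced with MSCV-Cre-puro, a retrovirus carrying Cre and puromycin resistance, and selected with puromycin (Smchd1 del/del), and the other was left untransduced (Smchd1 fl/fl), so that deletion and transduction with selection cannot be told apart. Both genotypes were sampled at days 1, 5 and 8, with 1 library per line, which makes 6 groups of 2 libraries. The day 1 cells are undifferentiated by their label, and the protocol calls this time point day 0. For the other times LIF was removed and Fgf2 added, with a Gsk3 inhibitor and later Gdf11. Smchd1, a chromatin repressor, was lower in both del/del libraries than in both fl/fl libraries on each day.

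The libraries held 1509642 to 8670941 reads in genes. The fl/fl day 8 library of line 3 was the shallowest, and 63.2% of its genes with 1 to 10 reads had an even number of reads, against 44.3% to 47.2% in the other 11 libraries. Calls of forkhead genes at day 8 are therefore given with and without it where it decides them. Counts and medians of gene lists and sums of markers include it, and were not computed without it. The summed level of 12 neuromesodermal progenitor markers ranged over the libraries from 52.8 to 61.5 RPM at day 1, then from 125 to 191 at day 5, then from 49.98 to 63.1 at day 8, and the label therefore matches its markers best at day 5. At day 8 Wnt3a, one of these markers, was listed with no read in fl/fl. In bulk RNA, fewer cells of a type and less RNA per cell cannot be told apart.

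Levels are given below as RPM, reads scaled to the library's total reads, on a scale on which the median gene is level across libraries, and in whole reads for genes with few reads. A change is called where the adjusted p of limma, over all 14063 genes tested, is under 0.05. Ratios of reads are sums over the 2 libraries of a group with an exact 95% counting interval, which covers counting error only. That 2 groups of 2 libraries do not overlap is common even without a difference. The share of all genes without overlap was not computed.

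The leading forkhead gene changed with the day. Compared per kilobase of exon, Foxh1 was the highest member in all 4 libraries at day 1, at 14.2 and 14.2 RPM per kb in fl/fl and 13.8 and 14.1 in del/del. It then made up 24.5% to 25.4% of the summed level of the family. At day 5 Foxo4 was the highest member in all 4 libraries, at 7.96 and 9.37 RPM per kb in fl/fl and 8.15 and 6.36 in del/del.

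At day 8 the leading member differed between libraries. Foxo4 was highest in both fl/fl libraries, at 13.8 and 22.1 RPM per kb, or 25.6% and 36.3% of the family's sum. In del/del Foxk2, a broadly expressed factor, was at 6.41 and 6.42 RPM per kb and Foxo4 at 5.80 and 6.46, so that the order of these neighbours differed between the 2 del/del libraries. Foxk2 itself lay between 22.2 and 33.8 RPM in all 12 libraries.

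The 15 members that did not pass the filter held between 0 and 205 reads each over all 12 libraries, with a median of 75. Foxi1, known from ionocytes and the inner ear, had no read in any library, and Foxe3, a lens factor, had 1 read. Foxb2 (4 reads), Foxi2 (13), Foxs1 (15), Foxn1 (24), Foxd2 (66), Foxd4 (75), Foxc2 (76) and Foxp2 (78) were among those with fewer reads, and Foxa1 (133), Foxo6 (145), Foxe1 (172) and Foxd1 (205) had the most. They were left out of the tests below. With no filter, where a library without a read enters at 0.9 reads, 41 members were tested. That fit called Foxd1 higher and Foxd4 lower at day 5 than at day 1 in both genotypes, Foxd2 higher in fl/fl and Foxp2 higher in del/del. It also called Foxb2, with its 4 reads, lower in del/del than in fl/fl at day 8. At that day a gene without a read enters at log2 -5.56 and -5.46 in del/del, but at -2.95 in the shallow line 3 of fl/fl. Foxb2 had 3 reads in line 1 of fl/fl and none in line 3, so that its call cannot show a difference.

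Several of these low genes had reads in part of the course. Foxd4, a relative of Foxd3, had 8 and 14 reads in fl/fl and 26 and 27 in del/del at day 1, and none in the 8 later libraries. Foxc2, the paraxial mesoderm relative of Foxc1, had 17 and 21 reads in del/del at day 8 and 6 and 0 in fl/fl. Foxs1 had reads only in del/del at day 8, with 2 and 13. One of the fl/fl day 8 libraries is the shallow one, so that a few reads would not be detectable there at an equal level.

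**Figure D1:**
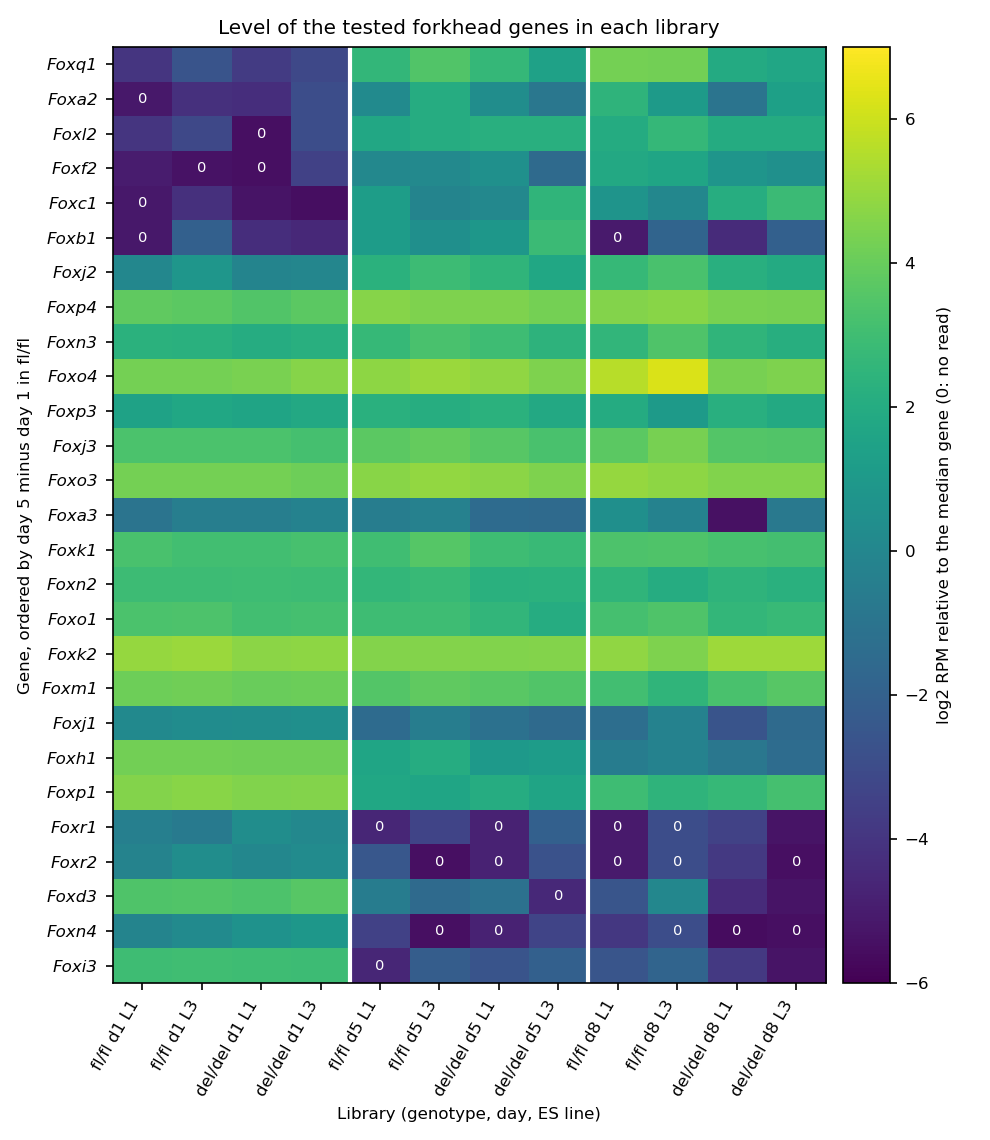
Level of the 27 tested forkhead genes (rows) in the 12 libraries (columns, by day, genotype and ES line L1 or L3), as log2 RPM relative to the median gene, with 0 marking a library without a read. The upper 6 genes are higher at day 5 than at day 1 and the lowest 7 are lower, while the genes between them change less from day 1 to day 5.

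The question of which members moved as ES cells differentiated was answered by day 5 against day 1 within each genotype. In fl/fl 10 of the 27 tested members rose and 8 fell, where 23% of all tested genes rose and 17.9% fell. In del/del 9 rose and 10 fell, where 21.2% of all genes rose and 18.3% fell. The median member changed by 0.35 in fl/fl and -0.20 in del/del on the log2 scale, and the median gene by -0.04 and 0.03. Members called in both genotypes were 9 that rose (Foxa2, Foxb1, Foxc1, Foxf2, Foxj2, Foxl2, Foxo3, Foxp4 and Foxq1) and 7 that fell (Foxd3, Foxh1, Foxi3, Foxn4, Foxp1, Foxr1 and Foxr2). Foxd3, Foxi3, Foxj1, Foxn4, Foxr1 and Foxr2 passed the filter through day 1 libraries alone, and Foxb1 through day 5 libraries alone. Foxa2, Foxc1, Foxf2, Foxl2 and Foxq1 passed it through day 5 and day 8 libraries alone, with no day 1 library above 0. The filter, applied alike to all genes, thus favoured a change in these members. On the deposited scale, on which the median gene fell by 0.42 in fl/fl and 0.88 in del/del, 7 rose and 7 fell in fl/fl, and 5 rose and 12 fell in del/del.

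Among the genes of the pluripotent state, Foxh1 stood at 18.6 and 18.5 RPM in fl/fl and 18.1 and 18.5 in del/del at day 1. Day 5 values were 3.11 and 4.13 in fl/fl and 2.03 and 2.30 in del/del. At day 8 it was at 0.70 and 0.86 in fl/fl and 0.56 and 0.38 in del/del. The ranges of the 3 days did not overlap in either genotype. Foxh1 fell by 2.37 (SE 0.29, adjusted p 0.00012) and then by a further 2.21 (SE 0.29, adjusted p 0.0035) in fl/fl on the log2 scale. In del/del it fell by 3.08 (SE 0.29, adjusted p 2.28e-05) and then by 2.23 (SE 0.29, adjusted p 0.0012), the second of which was not called on the deposited scale (adjusted p 0.076).

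Partners of Foxh1 did not move as one group. Of the 13 tested genes of a list of Nodal and Smad partners and targets, 4 rose and 4 fell from day 1 to day 5 in fl/fl, with a median of 0.39, and 3 rose and 4 fell in del/del, with a median of 0.17. Lefty1, an inhibitor of Nodal that is also its target, had log2 changes of -3.87 in fl/fl and -5.37 in del/del. Nodal, the ligand, fell likewise (-2.97 and -3.81), as did its co-receptor Tdgf1 (-3.67 and -4.86). Smad3, which carries the signal to the nucleus, rose by 1.20 in fl/fl.

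Foxd3 was at 10.7 and 11.3 RPM in fl/fl and 10.4 and 12.4 in del/del at day 1. At day 5 it was at 0.68 and 0.35 RPM in fl/fl (15 and 14 reads), and at 0.45 RPM (11 reads) in line 1 and without a read in line 3 of del/del. All day 1 libraries lay above all later ones. Day 1 exceeded day 5 by a ratio of 23.6 (16.3 to 35.4) in fl/fl and 46.7 (26.0 to 93.8) in del/del, with adjusted p of 0.0055 and 0.00076 in limma.

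The 9 tested genes of a neural crest list, the other setting in which Foxd3 acts, moved the opposite way to Foxd3. From day 1 to day 5, 7 of 9 rose and none fell in each genotype, with medians of 2.86 in fl/fl and 2.58 in del/del. Ets1 rose by 4.74 and 2.83, Pax3 by 6.50 and 5.53 and Msx2 by 3.16 and 2.58, in fl/fl and del/del respectively. These genes are also expressed in mesoderm, and Pax3 stands in the paraxial mesoderm list too.

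Foxi3, known from the ectoderm of the ear and branchial arches, was among the highest members per kilobase at day 1, at 6.19 and 6.20 RPM per kb in fl/fl and 6.01 and 5.85 in del/del. It had 257 and 290 reads in fl/fl and 304 and 341 in del/del at day 1. Day 5 libraries held 0 and 9 reads in fl/fl and 4 and 5 in del/del, and no later library had more than 9. Day 1 exceeded day 5 by a ratio of 54.8 (28.6 to 120) in fl/fl and 37.7 (19.7 to 82.7) in del/del, with adjusted p of 0.00015 and 0.0005.

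Foxn4, which acts in progenitors of the retina and spinal cord, and the little studied Foxr1 and Foxr2 were low at day 1 and nearly absent later. Foxn4 had 30 and 42 reads in fl/fl and 61 and 84 in del/del at day 1, and at most 2 reads in each of the 8 later libraries. The ratio of day 1 to day 5 was 32.4 (8.66 to 273) in fl/fl and 38.1 (10.4 to 318) in del/del, with adjusted p of 0.0021 and 0.0015. Foxr1 had 25 and 23 reads in fl/fl and 51 and 48 in del/del at day 1, and between 0 and 5 later. Foxr2 had 28 and 47 reads in fl/fl and 40 and 54 in del/del at day 1, and between 0 and 4 later. Both fell in both genotypes, by ratios from 10.4 to 16.9 and with adjusted p from 0.018 to 0.028. These calls are thin. Foxr1 passed the filter only through the 2 del/del day 1 libraries, and was not tested where either was left out. Foxr2 and Foxn4 passed it only through the 4 day 1 libraries. The filter thus favoured a fall in these genes. The fall of Foxr1 was not called without any day 1 or day 5 library in fl/fl (adjusted p 0.052 to 0.15) or without line 1 at day 5 in del/del (0.16, with the fall at 2.23). That of Foxr2 was not called without either day 1 library in either genotype, line 3 at day 5 in fl/fl (where the fall was 2.55) or line 1 at day 5 in del/del (0.065 to 0.16).

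Foxp1, a repressor that dimerises with other Foxp factors, was one of few members that came back. It was at 23.8 and 26.2 RPM in fl/fl and 23.3 and 23.9 in del/del at day 1, and at 3.34 and 3.16 in fl/fl and 4.10 and 2.99 in del/del at day 5. At day 8 it stood at 7.82 and 5.45 RPM in fl/fl and 6.46 and 9.07 in del/del, above every day 5 library and below every day 1 library. It fell by 2.94 (SE 0.24, adjusted p 1.02e-05) in fl/fl and by 2.75 (SE 0.24, adjusted p 1.52e-05) in del/del. From day 5 to day 8 it rose by 1.01 (SE 0.24, adjusted p 0.034) in fl/fl and by 1.13 (SE 0.24, adjusted p 0.014) in del/del. The later rise in fl/fl was not called without any 1 of the 4 day 1 libraries, either fl/fl day 5 library or line 1 at day 8 (adjusted p 0.061 to 0.18, log2 change 0.75 to 1.05). The later rise in del/del was not called without line 3 at day 8 (adjusted p 0.15, log2 change 0.89).

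**Figure D2:**
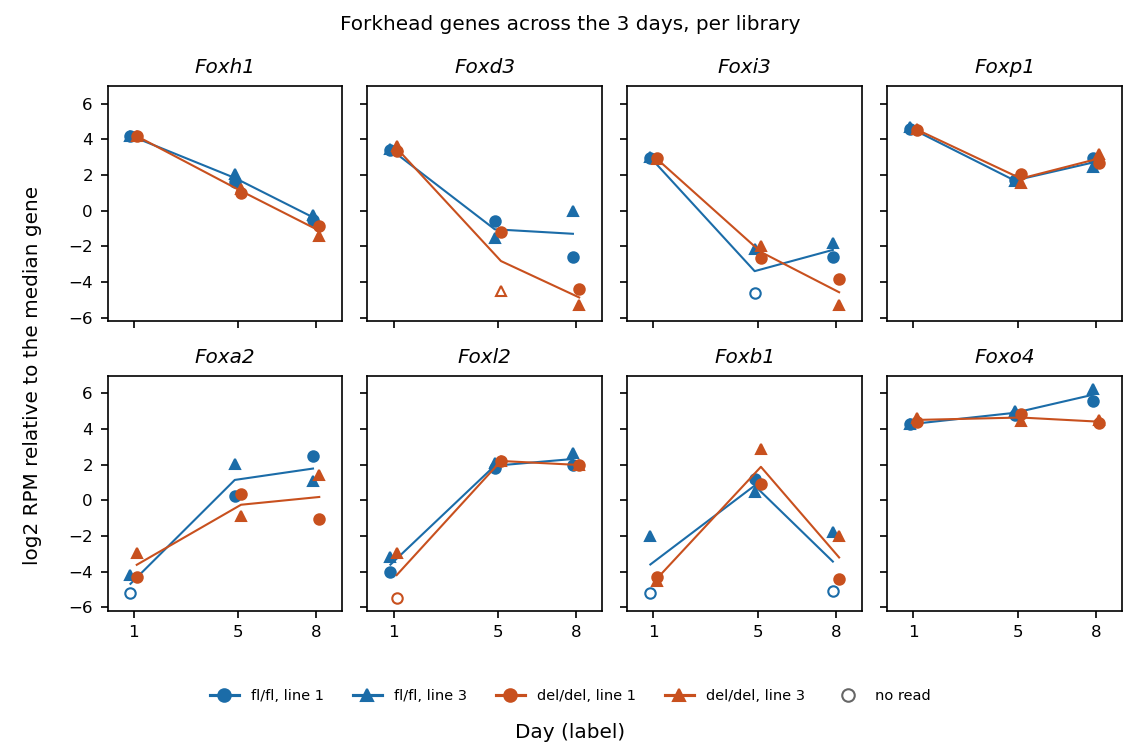
Log2 RPM relative to the median gene against the labelled day for 8 forkhead genes, with fl/fl in blue and del/del in orange, line 1 as circles and line 3 as triangles, open where no read was found, and lines joining group means. Foxh1 drops at both steps, Foxp1 drops and partly returns, Foxb1 peaks at day 5, and Foxo4 separates by genotype at day 8.

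Among the members that rose, Foxa2, the endoderm, node and notochord factor, had 0 and 2 reads in fl/fl and 2 and 6 in del/del at day 1. By day 5 there were 26 and 167 reads in fl/fl and 32 and 11 in del/del. At day 8 it had 166 and 15 in fl/fl and 21 and 105 in del/del. All day 5 and day 8 libraries lay above all day 1 libraries in RPM, but the lines differed within each group, from 1.17 to 4.18 RPM in fl/fl at day 5 and from 0.49 to 2.64 in del/del at day 8.

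Foxa2 rose from day 1 to day 5 by a ratio of 107 (29.2 to 891) in fl/fl, with adjusted p 0.00078, and of 10.2 (4.75 to 25.2) in del/del, with adjusted p 0.016. The call in del/del was lost without line 1 at day 1 or at day 5 (adjusted p 0.094 and 0.12), with voom, on the deposited scale and with a pseudocount of 0.5 RPM. Of the 11 tested genes of a list for Foxa tissues, 7 rose and 1 fell in fl/fl, with a median of 2.82, and 6 rose and 1 fell in del/del, with a median of 2.35. Gata6 rose by 3.95 in fl/fl and 2.77 in del/del, Nog by 3.84 and 3.81, and Krt18 by 2.02 and 2.35. Gata6 and Krt18 are expressed in extraembryonic as well as definitive endoderm, and the summed level of 14 extraembryonic endoderm markers went from 83.7 to 102 RPM at day 1 to 366 to 772 RPM at day 5. Its part in the rise of Foxa2 was not tested.

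Foxa3, the third Foxa gene, had between 1 and 42 reads per library and was called in neither step. Foxa1 did not pass the filter, with 4 to 31 reads per library.

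Foxl2, known from the ovary, pituitary and eyelid, had 2 and 4 reads in fl/fl and 0 and 6 in del/del at day 1. It stood at 3.52 and 4.21 RPM in fl/fl and 4.67 and 4.59 in del/del at day 5, and at 3.96 and 6.31 in fl/fl and 3.97 and 3.95 in del/del at day 8. It was thus near the same level in all 8 later libraries, between 3.52 and 6.31 RPM. Day 5 exceeded day 1 by a ratio of 45.5 (20.6 to 125) in fl/fl and 65.7 (29.7 to 181) in del/del, with adjusted p of 0.00014 and 5.79e-05.

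Foxb1, known from the hypothalamus and brainstem, was a day 5 gene. It had 0 and 9 reads in fl/fl and 2 and 2 in del/del at day 1. It had 50 and 56 reads in fl/fl and 46 and 146 in del/del at day 5. At day 8 it had 0 and 2 in fl/fl and 2 and 10 in del/del. In RPM every day 5 library (1.40 to 7.28) lay above every day 1 and day 8 library (0 to 0.29).

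Foxb1 rose in the first step by a ratio of 13.1 (6.63 to 29.4) in fl/fl and 91.4 (35.1 to 339) in del/del, with adjusted p of 0.02 and 0.0034. In the second step it fell in del/del by a ratio of 29.5 (16.5 to 58.1) with adjusted p 0.031, and the ratio in fl/fl was 31.6 (8.54 to 264) with adjusted p 0.077, which was not called, though it was with the replicate block, with the pseudocount and on the deposited scale. The rise in fl/fl was lost without line 1 at day 1 (log2 change 2.84) or either day 5 library (adjusted p 0.066 to 0.18). The fall in del/del was lost without line 3 at del/del day 5, either fl/fl day 5 library or either del/del day 8 library (adjusted p 0.051 to 0.19). Of its exons, 14.0% lie under B230323A14Rik on the opposite strand. Nothing states whether counting used strand, so that reads of overlapping genes cannot be told apart.

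Foxj2, a broadly expressed relative of Foxj3, was at 1.02 and 1.75 RPM in fl/fl and 0.91 and 0.97 in del/del at day 1. It was at 4.87 and 7.64 in fl/fl and 5.60 and 3.39 in del/del at day 5. It rose by 2.19 (SE 0.38, adjusted p 0.001) in fl/fl and 2.22 (SE 0.38, adjusted p 0.001) in del/del, and the rise in del/del was not called on the deposited scale (adjusted p 0.064).

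Foxp4, the member of the Foxp class that also acts in foregut and heart, rose by less. It was at 14.1 and 13.4 RPM in fl/fl and 10.9 and 13.1 in del/del at day 1, and between 19.8 and 25.8 RPM in all 8 later libraries. The first step added 0.77 (SE 0.14, adjusted p 0.0016) in fl/fl and 0.82 (SE 0.14, adjusted p 0.0011) in del/del. On the deposited scale neither was called, and the value in del/del was -0.09 (adjusted p 0.87). Foxp3, the regulatory T cell factor, was at 2.15 to 4.95 RPM in the 12 libraries with no call, and 21.5% of its exons overlap other annotated genes, Ccdc22 among them. Foxp2, known from speech circuits and lung, did not pass the filter, with 0 to 24 reads per library.

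Foxq1, Foxf2 and Foxc1 lie in this order on chromosome 13 and on the same strand (mm10, plus strand, Foxq1 at 31558170 to 31560970, Foxf2 at 31625816 to 31631403, Foxc1 at 31806646 to 31810635), with gaps of 64.8 and 175 kb. They are the only 3 members of which each lies within 200 kb of the next, apart from Foxd2 and Foxe3 on chromosome 4, 16.2 kb apart and both low. Foxq1 is known from hair and stomach, Foxf2 from gut mesenchyme and palate, and Foxc1 from somites and the front of the eye. Since the 3 neighbours moved together in the first step, the 250 bases before the start of Foxf2 (chr13:31625566-31625815, plus strand) and of Foxc1 (chr13:31806396-31806645, plus strand) are shown, from RefSeq on GRCm38.p6, with GC boxes in capitals.
Foxf2: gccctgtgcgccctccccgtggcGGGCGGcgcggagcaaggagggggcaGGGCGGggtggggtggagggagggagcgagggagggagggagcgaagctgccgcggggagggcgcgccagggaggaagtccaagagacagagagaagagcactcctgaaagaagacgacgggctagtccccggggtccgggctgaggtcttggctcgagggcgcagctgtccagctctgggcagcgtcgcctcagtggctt
Foxc1: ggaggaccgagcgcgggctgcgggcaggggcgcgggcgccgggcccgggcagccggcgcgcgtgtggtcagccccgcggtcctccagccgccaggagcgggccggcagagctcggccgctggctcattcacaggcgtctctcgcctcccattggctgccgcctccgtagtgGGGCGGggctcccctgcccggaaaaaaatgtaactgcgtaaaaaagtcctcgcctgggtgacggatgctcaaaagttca

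Both windows are rich in CG pairs, with an observed over expected ratio of 0.72 for Foxf2 and 0.93 for Foxc1, against a median of 0.37 over 32851 promoters of that table. Foxf2 holds the GC box GGGCGG at 227 and 201 bases before its start and Foxc1 at 79 bases, and 32.7% of all promoter windows of this length hold it on either strand. Over the 33 windows found for forkhead genes the median ratio was 0.70, and 23 held a GC box. Neither trait is thus particular to these neighbours. Neither window holds the letters TGTTTAC of a forkhead site (3.17% of windows), CTTTGAT of a TCF/LEF site (3.21%) or TATAAA (12.4%), on either strand. Entries were found for 28 of the 42 members, and Foxq1 is not among them.

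Foxq1 had 2 and 6 reads in fl/fl and 3 and 5 in del/del at day 1, which is 0.06 to 0.16 RPM. At day 5 it was at 6.09 and 11.2 RPM in fl/fl and 6.21 and 2.69 in del/del. Every day 5 library was above every day 1 library. Day 5 exceeded day 1 by a ratio of 80.6 (40.6 to 188) in fl/fl and 49.2 (24.5 to 116) in del/del, with adjusted p of 1.39e-05 and 3.6e-05. A530084C06Rik, which overlaps 41.6% of the exons of Foxq1 on the opposite strand, rose likewise, by 6.48 in fl/fl and 5.89 in del/del on the log2 scale. Reads of Foxq1 and of this gene cannot be told apart in this step.

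Foxf2 had 1 and 0 reads in fl/fl and 0 and 4 in del/del at day 1. At day 5 it was at 1.04 and 1.10 RPM in fl/fl and 1.42 and 0.35 in del/del. The ratio was 74.3 (12.9 to 2980) in fl/fl, which rests on 1 read at day 1, and 19.98 (7.25 to 76.7) in del/del, with adjusted p of 0.0004 and 0.0023. Foxc1 had 0 and 2 reads in fl/fl and 1 and 1 in del/del at day 1. At day 5 it was at 2.35 and 0.90 RPM in fl/fl and 1.06 and 5.69 in del/del. The ratio was 48.8 (13.1 to 409) in fl/fl and 133 (36.2 to 1111) in del/del, with adjusted p of 0.00055 and 0.00012.

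The 2 del/del lines differed at day 5 in opposite ways for these neighbours. Line 3 was below line 1 for Foxq1 (2.69 and 6.21 RPM) and Foxf2 (0.35 and 1.42 RPM), and above it for Foxc1 (5.69 and 1.06 RPM). Foxb1 went with Foxc1, at 7.28 RPM in line 3 and 1.87 in line 1. Foxc2 likewise had 18 reads in line 3 and none in line 1. The fl/fl lines at day 5 differed the other way for Foxq1 (6.09 RPM in line 1 and 11.2 in line 3) and Foxc1 (2.35 and 0.90). In the same order of lines, Foxf2 was at 1.04 and 1.10 RPM and Foxb1 at 2.26 and 1.40. Foxc2 had 2 and 6 reads (0.09 and 0.15 RPM), so that line 3 was above line 1 as in del/del.

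**Figure D3:**
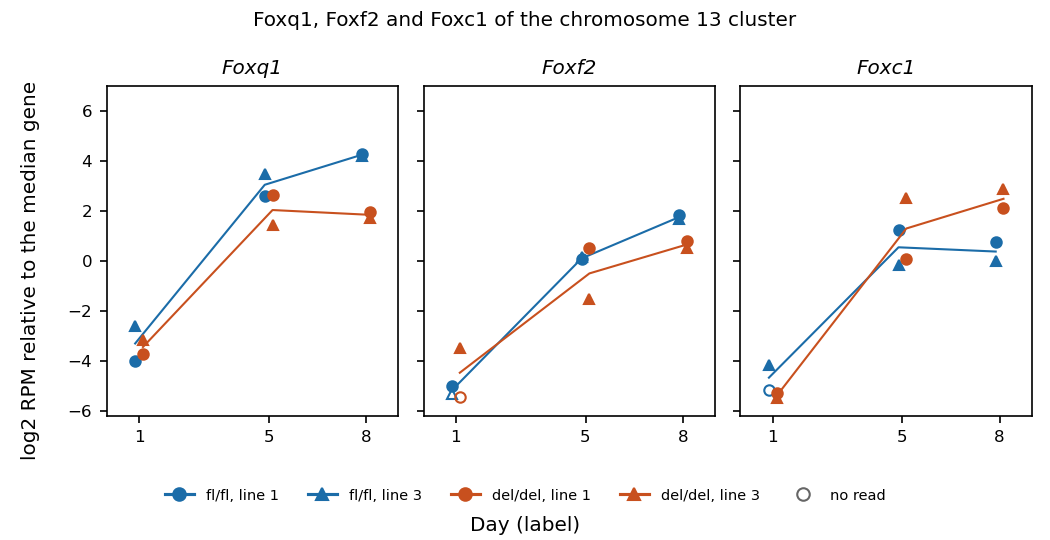
Log2 RPM relative to the median gene against the labelled day for the neighbours Foxq1, Foxf2 and Foxc1, with fl/fl in blue and del/del in orange, line 1 as circles and line 3 as triangles, open where no read was found, and lines joining group means. All 3 genes are low at day 1 and higher at day 5, and at day 8 del/del lies below fl/fl for Foxq1 and Foxf2 and above it for Foxc1.

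Around these genes, the 14 tested genes of the lateral mesoderm list for Foxf factors rose in 8 cases and fell in 2 in fl/fl, with a median of 1.81, and rose in 9 and fell in 4 in del/del, with a median of 2.15. Hoxb6 rose by 8.33 and 9.02, while Ptch1 and Gli1, readouts of hedgehog signalling, fell (-1.87 and -3.51 in fl/fl, -1.997 and -4.46 in del/del). Of the 7 tested genes of the paraxial mesoderm list for Foxc factors, 3 rose and 1 fell in each genotype, with medians of 0.34 and 1.06. Tbx6 rose by 7.20 in fl/fl and 6.50 in del/del, Msgn1 by 6.30 and 8.11, and Tcf15 fell (-2.58 and -2.23).

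The broadly expressed members changed by less. Foxo3 was at 17.4 to 19.4 RPM at day 1 and 22.1 to 30.3 RPM in all later libraries, and rose by 0.50 (SE 0.14, adjusted p 0.017) in fl/fl and 0.40 (SE 0.14, adjusted p 0.044) in del/del. On the deposited scale its value in del/del was -0.51 (adjusted p 0.32) and the rise in fl/fl was not called. The call in del/del was also lost with the replicate block (the ES line as a block), without the filter and in 9 of 12 fits that leave out 1 library (adjusted p 0.053 to 0.24, log2 change down to 0.25 without line 1 at day 5), and that in fl/fl without either day 1 library or line 3 at day 5 (0.087 to 0.13). Foxo1 fell by 0.81 (SE 0.21, adjusted p 0.011) in del/del, a call lost without line 3 at day 1 or at day 5 (adjusted p 0.073 and 0.055, with the fall at 0.52 without the latter), and its change in fl/fl was -0.37 (adjusted p 0.18). Foxn2 fell by 0.65 (adjusted p 0.029) and Foxj1 by 1.77 (adjusted p 0.033) in del/del. The call for Foxn2 was lost in 5 fits without 1 library (any day 1 library or line 1 at del/del day 5) and that for Foxj1 in 6 (any day 1 or del/del day 5 library), with adjusted p from 0.05 to 0.14. Foxk1, Foxj3 and Foxn3, together with Foxa3 and Foxp3, were called in no step in either genotype by limma on all 12 libraries. A rise of Foxj3 from day 1 to day 5 in fl/fl was called with voom and without any 1 of the fl/fl day 8 or del/del day 5 libraries, and one of Foxn3 with voom and without either fl/fl day 8 library. From day 5 to day 8, Foxp3 was called lower in fl/fl without line 1 at fl/fl day 8, and Foxa3 lower in del/del without line 3 at del/del day 8.

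The difference between genotypes in these steps was itself tested. No member of 27 had a different change from day 1 to day 5 in del/del (smallest adjusted p 0.96, no member with an unadjusted p under 0.05), where 0% of all genes were called by limma. No member was called with voom either.

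The 15 tested mitotic targets of Foxm1 all fell from day 1 to day 5 in fl/fl, with a median of -1.14, and 11 of 15 fell in del/del, with a median of -1.04. Among these, Cenpf changed by -1.51 and -1.65, and Bub1b by -1.30 and -1.18. Foxm1 itself was at 16.6 to 18.2 RPM at day 1 and 10.98 to 14.1 RPM at day 5, a change of -0.47 (adjusted p 0.091) in fl/fl and -0.51 (adjusted p 0.073) in del/del. Both changes were called with voom and without either fl/fl day 8 library, and that in del/del also on the deposited scale. Foxj1 itself stood at a low level, with 36 to 64 reads at day 1 and 7 to 28 at day 5. Of the 7 tested motile cilia genes 5 fell and none rose in each genotype, with medians of -1.62 and -2.41, Ccno among them (-2.86 and -2.73). The 20 tested regulators and targets of Foxo factors were mixed, with 10 rising and 4 falling in fl/fl and 7 and 6 in del/del. Akt1, the kinase that retains Foxo proteins in the cytoplasm, rose by 1.45 and 1.58. The list holds Pdk1, a symbol that in mouse names pyruvate dehydrogenase kinase and not the kinase upstream of Akt. Of the 4 tested anterior neural genes 3 fell in each genotype, Otx2 among them (-5.09 and -7.31).

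From day 5 to day 8 few members changed. In fl/fl Foxo4 and Foxp1 rose and Foxh1 and Foxm1 fell, which is 2 and 2 of 27, where 3.15% of all genes rose and 3.58% fell. In del/del Foxp1 and Foxk2 rose and Foxh1 and Foxb1 fell, where 7.24% of all genes rose and 4.67% fell. On the deposited scale none rose and 2 fell in fl/fl (Foxh1 and Foxb1), and 1 rose and 1 fell in del/del (Foxp1 and Foxb1). No member differed between the genotypes in this step by limma (smallest adjusted p 0.24, for Foxo4, and 4 members with an unadjusted p under 0.05), where 0.00711% of all genes did, nor with voom. Without line 1 at fl/fl day 8, Foxk2, Foxm1 and Foxo4 were called. The change in del/del minus that in fl/fl was above 0 for Foxk2 and Foxm1 and below 0 for Foxo4. That fit also called more of all genes.

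Foxm1 was at 11.7 and 14.1 RPM at day 5 and 8.28 and 5.60 at day 8 in fl/fl, and at 12.5 and 10.98 and then 9.65 and 12.2 in del/del. The fl/fl libraries of the 2 days did not overlap and the del/del libraries did. Foxm1 fell by 0.91 (SE 0.21, adjusted p 0.03) in fl/fl and changed by -0.11 (adjusted p 0.77) in del/del. The fall was not called with voom, on the deposited scale, or without any day 1 library, either fl/fl day 5 library or line 3 at fl/fl day 8 (adjusted p 0.054 to 0.15, log2 change down to -0.64). Of its 15 mitotic targets 6 fell in fl/fl, among them Nek2 (-1.28) and Ccnb2 (-1.01), and none was called in del/del, with medians of -0.83 and -0.33.

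Foxk2 in del/del went from 23.4 and 24.4 RPM to 33.7 and 33.8 RPM, by 0.50 (SE 0.13, adjusted p 0.036). In fl/fl it had gone from 30.8 and 32.6 RPM at day 1 to 24.1 and 24.0 at day 5, a fall of 0.40 (SE 0.13, adjusted p 0.035). Neither pair of groups overlapped. Both calls were lost on the deposited scale, without the filter and in 10 and 8 of the 12 fits that leave out 1 library (adjusted p 0.05 to 0.19 over those fits), and the first also with the replicate block.

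The comparison the study was built for, del/del against fl/fl on each day, gave no called member at day 1 or at day 5 and 3 at day 8, all of them lower in del/del. At day 1, 0.00711% of all genes were called in either direction, and the same share at day 5, in both cases Smchd1 alone. No member had an unadjusted p under 0.05 at day 1 and 2 had at day 5, and voom called none on either day. Averaged over the days no member was called (smallest adjusted p 0.072, for Foxo1, 9 members with an unadjusted p under 0.05, none called by voom), where 0.107% of all genes were. The mean was called lower for Foxq1 with the pseudocount. More members were called lower for the mean without line 1 at del/del day 5 and without line 1 at fl/fl day 8. In the first of these fits more of all genes were called too.

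At day 1 the members with the smallest p were Foxk2, Foxp4 and Foxj2, all lower in del/del. Foxk2 was at 27.0 and 27.8 RPM against 30.8 and 32.6, Foxp4 at 10.9 and 13.1 against 14.1 and 13.4, and Foxj2 at 0.91 and 0.97 against 1.02 and 1.75. These groups did not overlap, and the differences were -0.21, -0.20 and -0.51 on the log2 scale with an adjusted p of 1.0 each.

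At day 5 the smallest p were those of Foxo1, Foxh1 and Foxk1. Foxo1 was at 5.97 and 4.09 RPM in del/del and 7.85 and 7.87 in fl/fl, a difference of -0.67 (SE 0.21, adjusted p 0.6). Foxh1 differed by -0.73 (SE 0.29) and Foxk1, at 7.92 and 6.99 against 8.08 and 12.1 RPM, by -0.41 (SE 0.21), with the same adjusted p. Without line 1 at del/del day 5, Foxo1 and Foxd3 were called lower, in a fit that also called more of all genes.

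At day 8 the 3 members called lower were Foxo4, Foxq1 and Foxd3, where 7.05% of all genes were lower in del/del and 7.95% were higher. Of the 27 members 20 were below 0 and 7 above, with a median of -0.61, against 0.02 for all genes, and 13 members against 4857 of all 14063 genes had an unadjusted p under 0.05. On the deposited scale, on which the median gene was 0.90 higher in del/del, 3 members were higher (Foxc1, Foxk2 and Foxm1) and 1 lower (Foxd3). With the pseudocount of 0.5 RPM the same 3 were higher and 3 were lower (Foxa3, Foxo4 and Foxq1). The count was 12 without line 1 at fl/fl day 8 (3 higher and 9 lower), and Foxo4 alone without line 3 at fl/fl day 8 or line 1 at del/del day 8. It was 7 (3 higher and 4 lower) without line 1 or without line 3 at del/del day 5, and 2 without any 1 of the day 1 libraries or line 3 at del/del day 8.

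**Figure D4:**
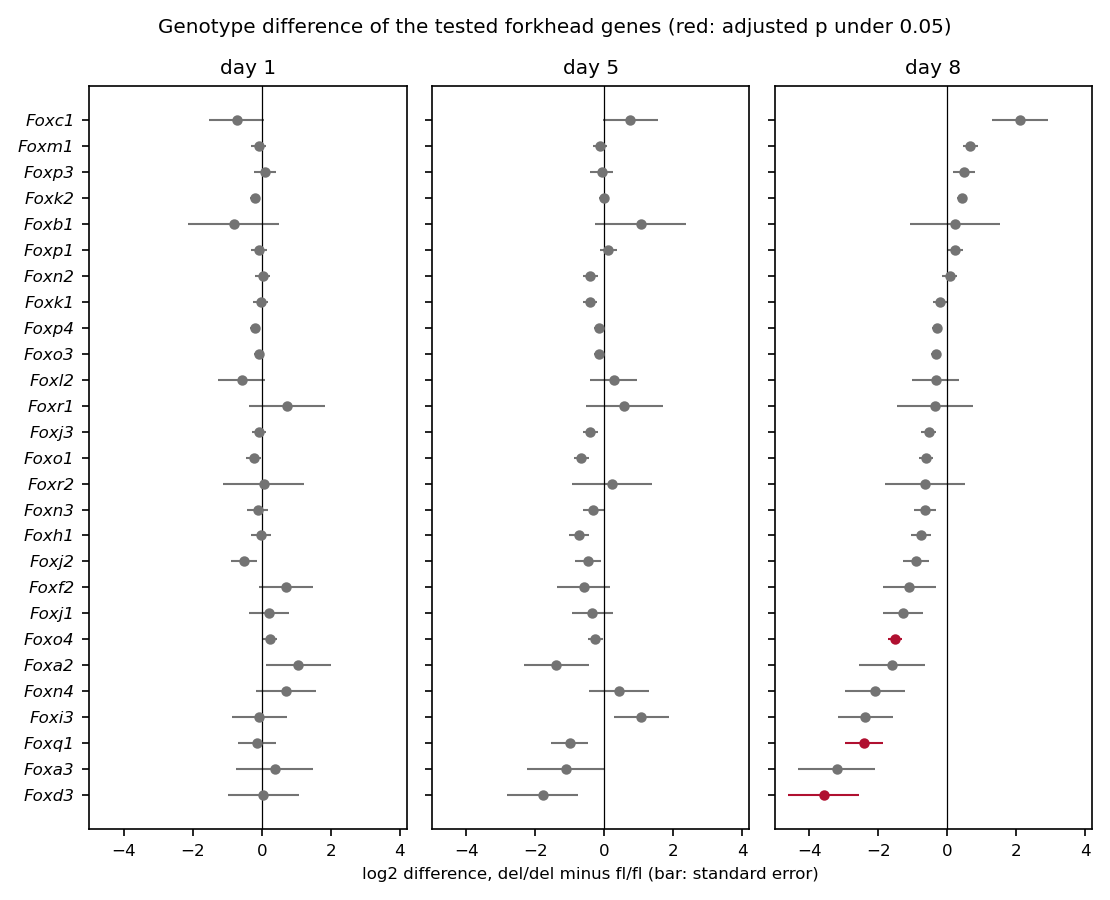
Log2 difference of del/del minus fl/fl for the 27 tested forkhead genes at days 1, 5 and 8, with bars of 1 standard error from limma, ordered by the day 8 value, and red where the adjusted p is under 0.05. Only at day 8 are any red, and these are Foxo4, Foxq1 and Foxd3, each below 0.

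Foxo4, an Akt-regulated factor on the X chromosome (mm10, 101254528 to 101260873, plus strand), was at 19.4 and 19.3 RPM in fl/fl and 21.0 and 24.9 in del/del at day 1. It was at 27.8 and 32.7 in fl/fl and 28.4 and 22.2 in del/del at day 5. At day 8 it was at 48.0 and 76.9 RPM in fl/fl and 20.2 and 22.5 in del/del. The genotypes overlapped at day 5 and stood apart at day 8, where fl/fl exceeded del/del by a ratio of 2.51 (2.35 to 2.67). The log2 difference was -1.51 (SE 0.21, adjusted p 0.0071), against 0.24 at day 1 (adjusted p 1.0).

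In fl/fl Foxo4 had risen by 0.64 (SE 0.21, adjusted p 0.034) in the first step and by 1.01 (SE 0.21, adjusted p 0.023) in the second, while the changes in del/del were 0.14 and -0.23 (adjusted p 0.65 and 0.51). The genotype difference at day 8 remained called in all 12 fits without 1 library, and was -1.17 (adjusted p 0.031) without the shallow line 3 library. It was -0.63 (adjusted p 0.19) on the deposited scale. The rise of the second step in fl/fl was 0.67 without that library and not called without it or without either fl/fl day 5 library (adjusted p 0.07 to 0.19), and that of the first not without any fl/fl day 1 or day 5 library (0.063 to 0.19).

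The other Foxo genes did not show a change of this size at day 8. Foxo1 was at 6.03 and 6.80 RPM in del/del and 8.95 and 10.6 in fl/fl, a difference of -0.61 (SE 0.21, adjusted p 0.071), which was called without either del/del day 5 library and without line 1 at fl/fl day 8. Foxo3 was at 23.5 and 22.8 against 30.3 and 27.3, a difference of -0.31 (SE 0.14, adjusted p 0.15). Neither pair of groups overlapped. Foxo6, the neuronal member, did not pass the filter, with 10 and 26 reads in del/del and 8 and 3 in fl/fl. Of the 20 tested regulators and targets, 1 was higher and 5 were lower in del/del at day 8, with a median of -0.25, among them Cat (-0.96), Klf6 (-1.13), Sesn3 (-0.81) and Fbxo32 (-1.34), which are known Foxo targets.

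Foxq1 at day 8 was at 19.5 and 18.5 RPM in fl/fl and 3.92 and 3.27 in del/del, with 586 and 129 reads against 167 and 130. The groups lay far apart, with fl/fl higher by a ratio of 5.35 (4.67 to 6.15). The log2 difference was -2.41 (SE 0.55, adjusted p 0.021). It was not called without either del/del day 8 library (adjusted p 0.067 and 0.16) or without line 3 at fl/fl day 8 (-2.44, adjusted p 0.092), although its size stayed between -2.53 and -2.27 in those fits, nor on the deposited scale (-1.53, adjusted p 0.093). Of the exons of Foxq1, 41.6% overlap A530084C06Rik on the opposite strand, which differed by -2.19 (adjusted p 0.055) and had 281 and 65 reads against 81 and 87. Reads of the overlapping genes cannot be told apart here.

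Its neighbours differed from it. Foxf2 at day 8 was at 3.56 and 3.16 RPM in fl/fl and 1.71 and 1.44 in del/del, without overlap, a difference of -1.10 (SE 0.78, adjusted p 0.33). Foxc1 was at 4.30 and 7.28 RPM in del/del, with 183 and 289 reads, and at 1.66 and 1.00 in fl/fl, with 50 and 7 reads. Its groups did not overlap and its difference had the other sign, 2.11 (SE 0.81, adjusted p 0.094), with a ratio of 3.73 (2.83 to 4.99). It was called higher with the pseudocount, on the deposited scale and without either del/del day 5 library.

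Of the 7 tested paraxial mesoderm genes that go with Foxc1, 4 were higher and none lower in del/del at day 8, with a median of 1.75. Tcf15 was higher by 1.53, Twist1 by 1.05, Lfng by 2.35 and Msgn1 by 3.93. Of the 14 lateral mesoderm genes, 5 were higher and 1 lower, with a median of 0.17 and 7 of 14 above 0, against 0.02 for all genes. Among these, Tbx2 was higher by 3.54, Bmp4 by 1.60 and Gli1 by 2.27, and Hand1 was lower (-2.10). The summed level of 12 fibroblast markers was 659 to 817 RPM in del/del and 124 to 362 in fl/fl at day 8, with none of the 12 at 0. Its part in the values of Foxc1 was not tested.

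Foxd3 at day 8 had 2 and 1 reads in del/del and 5 and 7 in fl/fl, out of 347 to 566 at day 1. The groups did not overlap, at 0.05 and 0.03 RPM against 0.17 and 1.00, and the ratio of 8.89 (2.40 to 49.1) rests on these 15 reads. On the tested log2 scale Foxd3 was at -4.41 and -5.31 in del/del. A gene without a read enters at -2.95 in the shallow line 3 of fl/fl at day 8. That library would thus lie above del/del on this scale even without a read of Foxd3, and its place there cannot show a difference. The log2 difference was -3.57 (SE 1.03, adjusted p 0.042). This call was kept in 5 of 17 other fits. It was lost with voom, with the pseudocount, with the replicate block (adjusted p 0.057) and in 9 of 12 fits without 1 library, with adjusted p from 0.061 to 0.25. The exceptions were the fits without either del/del day 5 library or line 1 at fl/fl day 8, and without line 3 at fl/fl day 8 the difference was -2.27. Of the 9 tested neural crest genes 4 were higher and 1 lower in del/del, Zic1 by 2.72 and Msx1 by 3.11 higher and Erbb3 lower (-1.51).

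Neither tested Foxa gene was called between the genotypes at day 8. Foxa3 had 1 and 24 reads in del/del and 42 and 6 in fl/fl, which in RPM is 0.02 and 0.60 against 1.40 and 0.86, a ratio of 4.27 (2.58 to 7.22) with adjusted p 0.074. It was called lower in del/del with voom, with the pseudocount and without line 3 at del/del day 8. Foxa2, at 0.49 and 2.64 RPM against 5.52 and 2.15, overlapped between the genotypes (log2 difference -1.59, adjusted p 0.25). Of the 11 tested genes of the Foxa list none was higher and 4 were lower, with a median of -1.76, among them Trh (-1.85), Krt18 (-1.85) and Krt8 (-1.78). The summed level of 14 extraembryonic endoderm markers was 526 to 818 RPM in del/del, with Ttr at 0, and 1321 to 1700 in fl/fl. That of 12 trophoblast markers was 36.6 to 61.8 RPM in del/del, with Elf5 at 0, and 124 to 217 in fl/fl. Their part in the Foxa, Foxq1 and Foxo4 values was not tested.

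Foxm1 at day 8 had levels of 9.65 and 12.2 RPM in the del/del libraries, above the 8.28 and 5.60 of fl/fl without overlap, a difference of 0.67 (SE 0.21, adjusted p 0.051). All 15 of its tested mitotic targets were above 0 and 6 were called higher, with a median of 0.74 and with Cenpa at 1.05, Ccnb2 at 0.88, Bub1b at 0.78 and Top2a at 1.00. Foxk2 likewise had a difference of 0.43 (SE 0.13, adjusted p 0.055). Both were called higher with the pseudocount, on the deposited scale, without either del/del day 5 library and without line 1 at fl/fl day 8. Foxh1, by then at 0.38 to 0.86 RPM, differed by -0.75 (adjusted p 0.095), while of its 13 tested partners 2 were lower, Nodal (-1.39) and Smad4 (-0.39). Foxj1, with 7 and 14 reads against 12 and 6, differed by -1.28 (adjusted p 0.15), none of the 7 tested cilia genes was called, and their median was -0.24.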

How the data were processed

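Bulk RNA-seq of 12 libraries was used, with groups and ES lines taken from the labels. The deposited table holds log2 RPM (reads scaled to the library's total reads) for 25965 genes, with gene positions on mm10 from the same table. The submitters' processing notes name bcl2fastq, TopHat2 2.0.12 and edgeR without roles, and strandedness and the treatment of duplicates are not given in the sources used here. Genes without a read are entered as 0.9 reads, from the values. Whole reads were recovered for 100% of values, within 0.02 reads. The denominators behind the RPM were 14.9 to 34.0 M reads, of which 10.1% to 27.8% fell in genes.

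Each library was shifted by the median of its log ratios to the gene means (by -1.10 to 0.55). The 14063 genes above 0 on the deposited scale in 2 or more libraries were fitted with limma 3.58.1 (R 4.3.3; eBayes with a trend) as 6 group means sharing 1 spread, with Benjamini-Hochberg adjustment over all of them. The script was tested on simulated data. Alternatives were the deposited scale, voom on recovered reads, no filter, log2(RPM + 0.5), the ES line as a replicate block and each library left out. Lines pair across groups because each was split. Same-line deviations correlated at 0.13, -0.15 and -0.11 across genes at days 1, 5 and 8. The 2 lines come from separate blastocysts. The p-values rest on the spread between the 2 libraries of a group, pooled over the 6 groups. In that spread, line, culture and library cannot be told apart, and the same 2 lines recur in all 6 groups.

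The members, the gene lists and the rule for naming genes were chosen with earlier results of these data known. Members are named except 1 that is not reported here, with per-library values for called members, the 3 smallest p per genotype comparison, the 5 largest changes per step and direction, the leading member per group and its neighbours within 200 kb. Up to 4 genes per list are named. Exon lengths are from GENCODE M21, cut to the deposited spans.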

Additional observations from a re-analysis of the deposited data

How the results depend on the processing

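Over the members' values and counts, 832 alternatives kept direction and side of the threshold, 123 lost the threshold, 8 passed it only in the alternative and 2 reversed. The reversals were both on the deposited scale from day 1 to day 5 in del/del, Foxo3 at -0.51 and Foxp4 at -0.088. The count of called members from day 5 to day 8 was 2 on the deposited scale in fl/fl and 2 in del/del, against 4 each. With the pseudocount of 0.5 RPM it was 6 for the genotype at day 8, 3 higher and 3 lower in del/del, and 1 for its mean, against 3 lower and 0. Leaving out 1 library gave 0 to 2 members for the genotype at day 5, 1 to 12 at day 8 and 0 to 8 for the mean, 12 to 21 from day 1 to day 5 in fl/fl and 13 to 20 in del/del, 1 to 4 from day 5 to day 8 in fl/fl and 2 to 4 in del/del, and 0 to 3 for the difference between genotypes in that step. The number of all genes called in these comparisons also changed with the library left out. The cause was not tested. The replicate block, with pairing by ES line, gave 2 members at day 8 for the genotype (Foxo4 and Foxq1), 0 for the mean, 18 and 18 in the first step and 5 and 3 in the second in fl/fl and del/del, with the calls it changed beside each result. With 1 library of a group left out, the lone library is assumed to vary like the other groups. Over all genes, leaving out 1 library gave 52 to 4650 called at day 8, against 2109. Genes with under about 10 reads per library carry wide intervals, and those of the shallow fl/fl day 8 library may be too narrow.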

Other observations

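Foxf1a, which lies near Foxc2 on chromosome 8 and is a relative of Foxf2, lies outside the naming rule and did not pass the filter. It had 0 and 5 reads in fl/fl and 2 and 6 in del/del at day 1, 6 and 18 in fl/fl and 5 and 23 in del/del at day 5, and 11 and 0 in fl/fl and 11 and 10 in del/del at day 8. The 23 reads belong to del/del line 3, the library in which Foxc1 (114 reads), Foxc2 (18) and Foxb1 (146) were also above the other line.

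In the fl/fl day 8 library of line 3, 301 genes had 1 read, 906 had 2 and 382 had 3. In the fl/fl day 8 library of line 1 the numbers were 959, 846 and 508. The 10 ES cell markers had summed levels from 165 to 209 RPM at day 1, then from 88.3 to 114 at day 5, then from 65.7 to 104 at day 8.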
